A study of Mus musculus with 6 samples.

Results

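The genes described here make up the class I antigen display of the mouse. They are the 5 heavy chain genes H2-K1, H2-D1, H2-Q5, H2-Q7 and H2-T23, the light chain gene B2m, and 3 genes of peptide loading, Tap1, Tap2 and Tapbp. They were chosen by gene name, with earlier results of these data known. A probe set is a group of oligonucleotides on the array that reads 1 transcript or a family. Every probe set whose annotation named at least 1 of the 9 genes was taken. This gave 22 of the 36701 probe sets that are not controls, with 19, 1 and 2 on array designs A, B and C. Of the 22, 17 named 1 gene and 5 named several, and 13 carried a letter suffix, which in the manufacturer's naming marks probes that fit a whole gene family (f, 9 probe sets) or were picked under relaxed rules (r, 4 probe sets).

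The arrays compared the deep cerebellar nuclei, centred on the anterior interpositus nucleus, of male C57BL/6 mice aged 11 to 18 weeks. All mice had wires implanted in the left eyelid and 7 days of training in which a 352 ms tone and a 100 ms shock beside the eyelid were delivered. For paired mice the shock came 252 ms after tone onset and both stopped together, and for unpaired mice tone and shock were separated in a pseudorandom sequence. No untrained group was analysed here, and no transgene or deletion is given in the labels. Each group was a pool of 10 to 15 nuclei from the trained side, taken with a syringe needle 10 to 30 min from sacrifice, and each was read on 1 array of each of the 3 designs. With 1 array per pool and design there is no replicate, no spread between mice and no p-value, and the differences below compare these pools and not the training conditions. In such bulk tissue, fewer cells of a type and less RNA per cell cannot be told apart.

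Class I heavy chains bind short peptides made by the proteasome and show them at the cell surface together with beta-2-microglobulin, the product of B2m. Tap1 and Tap2 form the transporter that moves the peptides into the endoplasmic reticulum, and Tapbp codes for tapasin, which holds the empty heavy chain next to that transporter. H2-K1 and H2-D1 are the classical heavy chains, H2-Q7 and H2-T23 (Qa-1) are nonclassical ones, and RefSeq lists H2-Q5 as a transcribed pseudogene. In the brain, class I transcripts are found in microglia and endothelium and also in neurons, where class I proteins have been studied for their part in synapse remodelling and motor learning. Interferons and the transactivator Nlrc5 raise most of these genes together.

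The control regions of 3 of the heavy chains, H2-K1, H2-D1 and H2-Q7, resemble one another closely and share several elements. The stretch compared for H2-T23 was no closer to theirs than that of B2m. Below are 140 bases from the RefSeq promoter windows (GRCm38.p6) of 3 heavy chains and of B2m, printed 5′ to 3′ on the strand of the gene. Capitals mark matches to 4 short motifs searched on both strands, which do not overlap in these stretches: a kappa B core (GGATTCCC), the core of the interferon-stimulated response element (TTTCACTT), a CRE core (TGACG) and the CCAAT box (CCAAT). The stretches lie at chr17:34000329-34000468 on the minus strand for H2-K1, at chr17:35262913-35263052 on the plus strand for H2-D1, at chr17:35439012-35439151 on the plus strand for H2-Q7 and at chr2:122147547-122147686 on the plus strand for B2m.
H2-K1: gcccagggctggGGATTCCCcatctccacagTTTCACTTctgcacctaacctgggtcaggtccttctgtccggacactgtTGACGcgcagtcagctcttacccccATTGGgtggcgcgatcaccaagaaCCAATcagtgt
H2-D1: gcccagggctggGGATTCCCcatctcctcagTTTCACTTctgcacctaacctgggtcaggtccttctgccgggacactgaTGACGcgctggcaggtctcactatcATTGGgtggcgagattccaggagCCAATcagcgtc
H2-Q7: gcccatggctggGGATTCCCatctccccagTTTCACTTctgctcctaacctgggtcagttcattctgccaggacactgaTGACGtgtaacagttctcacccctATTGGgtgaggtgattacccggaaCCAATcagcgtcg
B2m: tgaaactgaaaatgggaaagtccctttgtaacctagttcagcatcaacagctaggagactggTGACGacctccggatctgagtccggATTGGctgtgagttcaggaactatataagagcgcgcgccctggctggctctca

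The H2-K1 and H2-D1 stretches were identical in 123 of 141 aligned columns (87.2%), H2-D1 and H2-Q7 in 119 of 142 (83.8%), and H2-K1 and H2-Q7 in 117 of 142 (82.4%), against 69 of 148 (46.6%) for H2-K1 and B2m. H2-T23, compared over the 140 bases before its start like B2m, was identical to H2-K1, H2-D1 and H2-Q7 in 46.5%, 46.2% and 46.2% of columns. The stretches of H2-K1, H2-D1 and H2-Q7 were instead cut at a fixed distance before their kappa B match. That match placed them in register, while the stretches of H2-T23 and B2m were not placed so. The stretches of H2-K1, H2-D1 and H2-Q7 carried the 4 motifs in the same order. B2m had the CRE core and the CCAAT box, and the window of H2-T23 had 1 of the 4, the CCAAT box. Only these exact letters were searched, so other spellings of the kappa B and interferon elements, in B2m as elsewhere, would be missed. Windows of 300 bases were found for 7 of the 9 members (not for H2-Q5 and Tap2). The interferon element core was in 3 of these 7 windows and in 1.60% of all 32851 promoter windows, and the kappa B core in 3 of 7 and 1.02%. Both cores were found, among the members, only in the windows of H2-K1, H2-D1 and H2-Q7. The stretches of these 3 resemble one another closely, so they are not 3 independent matches. The CRE core was in 5 of 7 and 20.8%, and the CCAAT box in 7 of 7 and 37.4%. These matches describe letters and not bound sites. Tap1 and Psmb9, an immunoproteasome subunit gene, lie head to head, and their windows shared 275 bases on opposite strands.

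The first question was how strongly the members were detected. Signals are log2 values, and the rank is the percentile of a signal among all probe sets of its array that are not controls. A probe set counted as above the signal filter when its mean over both pools reached the median of its design, and 14 of the 22 did. Levels of different probe sets are not ordered by transcript amount, because each set of probes binds with its own strength.

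B2m was bright in both pools, with a log2 signal of 8.55 (rank 94.9) in the unpaired pool and 8.50 (rank 95.0) in the paired one. The brightest H2-K1 probe set, 93120_f_at, had 8.03 (rank 92.3) and 7.91 (rank 91.9). The H2-D1 probe sets 101886_f_at and 97540_f_at lay at 7.28 and 7.37 in the unpaired pool (ranks 86.3 and 87.2) and at 7.43 and 7.14 in the paired pool (ranks 88.0 and 85.3). The B2m probe set and these probe sets of the classical heavy chains were thus in the upper part of both arrays of design A. These H2-K1 and H2-D1 probe sets are all of the f kind and can bind transcripts of other class I genes. Their signals may therefore not be those of H2-K1 and H2-D1 alone.

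Not every probe set of these genes was bright. For H2-K1, 97125_f_at had 5.85 in the unpaired pool and 5.98 in the paired one. The only H2-K1 probe set without a suffix, 97700_at, had 4.07 and 3.96, under the design's median. For H2-D1, 97541_f_at had 3.15 in both pools (ranks 22.8 and 22.2). The 3 H2-K1 probe sets, all on design A and annotated to the same gene, therefore ranged from rank 38.6 to rank 92.3 in the unpaired pool.

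The probe sets of the loading genes spanned both sides of the median signal. Tapbp had log2 signals in the unpaired pool of 6.24 on 102689_at, 5.87 on 162104_f_at, 5.34 on 100154_at and 1.99 on 170521_r_at, the last on design C at rank 11.9. Tap2 had 5.26 (rank 57.5) on 102873_at of design A and 4.69 (rank 76.0) on 165667_r_at of design C. None of the 3 Tap1 probe sets reached the filter, with ranks in the unpaired pool of 40.6 and 19.0 on design A and 35.7 on design B.

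H2-Q7 and H2-T23 had no probe set of their own, so their levels could not be read apart from other class I genes. H2-Q7 was named by 3 probe sets and H2-T23 by 2, each together with other genes. The probe set 98472_at, which named H2-T23 and the pseudogene H2-T-ps, had 4.81 in the unpaired pool and 4.69 in the paired one (ranks 50.2 and 47.6).

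**Figure D1:**
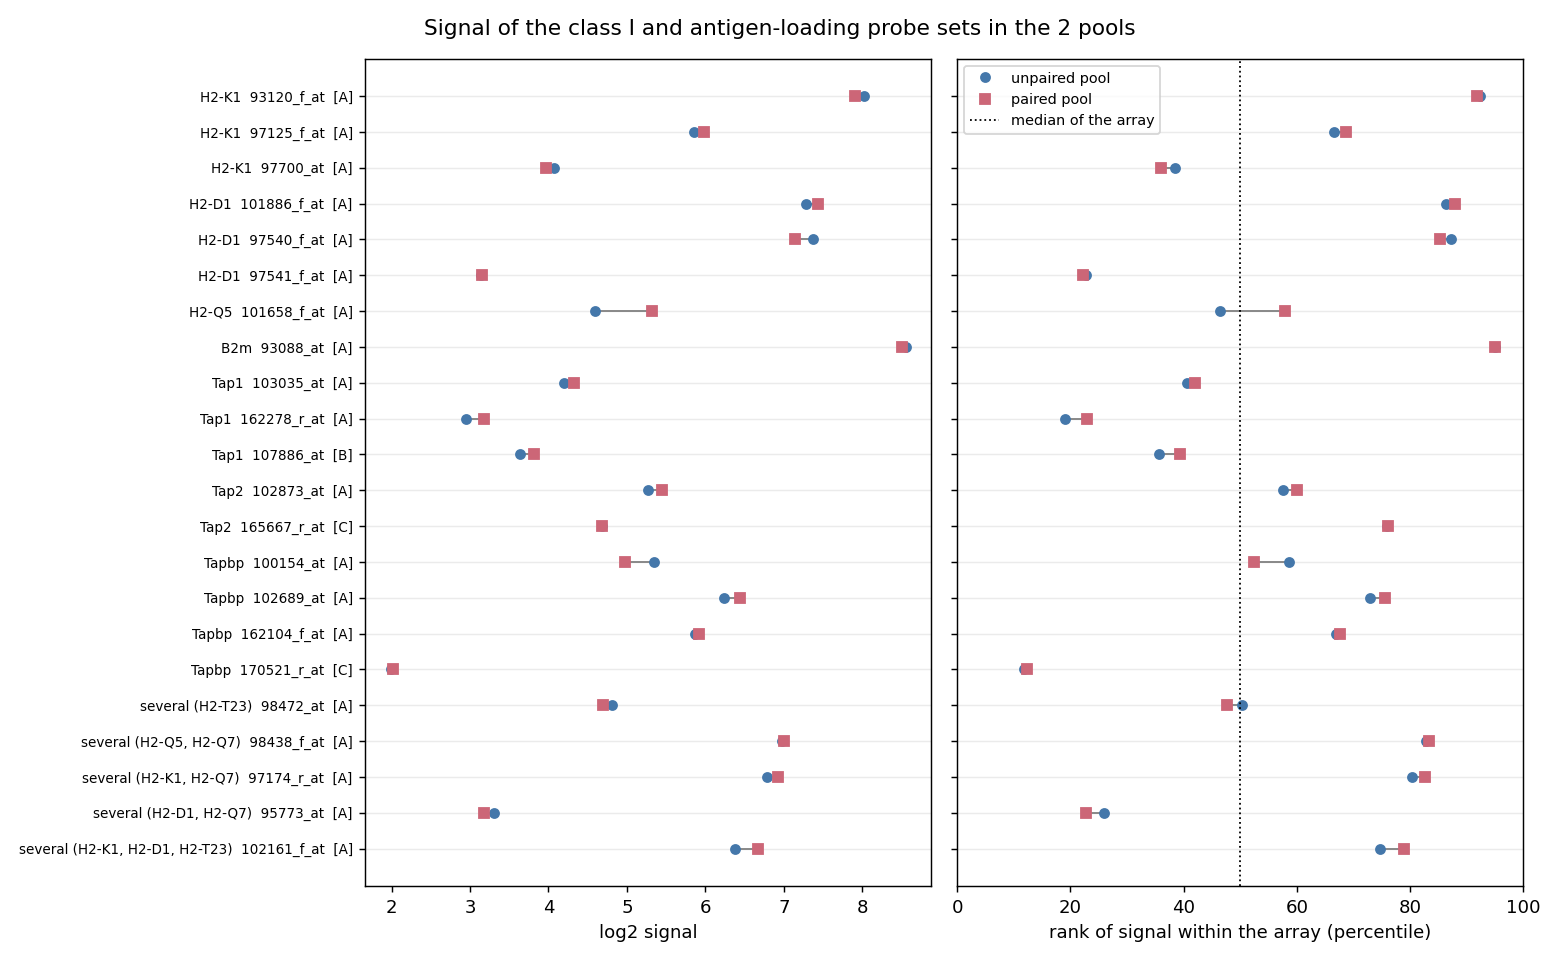
Log2 signal (left) and rank of that signal within its array in percent (right) for the 22 member probe sets, with the unpaired pool as circles, the paired pool as squares and the design in brackets. The pools lie close together for B2m at rank 95, and H2-Q5 is the one member that crosses the median upward, from rank 46.5 to rank 57.9.

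The comparison the design was made for is paired against unpaired training. Differences are given as log2 ratios, paired over unpaired, after a shift of 0.010, 0.008 or 0.007 (designs A, B and C) that set the median log2 ratio of probe sets above the filter to 0. The probe sets above the filter had SDs of 0.191, 0.202 and 0.190 on designs A, B and C. This SD is the spread over probe sets between 2 arrays and not an error between animals.

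H2-Q5 stood apart from the other members. Its own probe set, 101658_f_at, had a log2 signal of 4.59 (rank 46.5) in the unpaired pool and 5.32 (rank 57.9) in the paired one, which is a log2 ratio of 0.74 or 1.67-fold. This was the rank 4 log2 ratio among the 6211 probe sets of design A above the filter, and of the 500 probe sets nearest in signal 0% lay as far from 0 in either direction. The unpaired signal was below the median of its array, so the probe set passed the filter through the paired pool. It is also a probe set of the f kind. On design A, 1.03% of the 487 f probe sets above the filter lay past 1.5-fold, against 0.421% of the 4986 without a suffix, and their SDs were 0.199 and 0.186.

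A second and brighter probe set that names H2-Q5, together with H2-Q7 and H2-Q9, had no such difference. This was 98438_f_at, with 6.97 in the unpaired pool and 7.00 in the paired one and a log2 ratio of 0.04. The labels and the annotation do not tell which of the Q genes its signal came from. H2-Q5 thus rests on 1 probe set in 1 pair of arrays.

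No other member lay past 1.5-fold. Of the 14 probe sets above the filter 1 was past 1.5-fold, higher in the paired pool, against 0.681% of all 18351 probe sets above the filter in either direction and 0.349% in the higher direction. Without H2-Q5 the count was 0 of 13. Among the 14, 10 were higher and 4 lower, with a median log2 ratio of 0.10, and 50% of all probe sets above the filter were higher, with a median of 0. Without H2-Q5 the median was 0.063, with 9 of 13 higher. The members are not independent readings, since most of the heavy chain probe sets are of the f kind and can bind each other's transcripts. The members were also chosen with earlier results of these data known.

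The classical heavy chains gave no single direction. For H2-K1 the log2 ratio was -0.11 on 93120_f_at and 0.14 on 97125_f_at, with -0.09 on the dim 97700_at. The pools thus differed by 1.08-fold and 1.10-fold in opposite directions. For H2-D1 it was 0.16 on 101886_f_at and -0.21 on 97540_f_at, and 0.01 on the dim 97541_f_at. The mean over probe sets above the filter was 0.015 for H2-K1 and -0.03 for H2-D1. The sign of the H2-D1 mean turned under quantile scaling (0.0024) and with the brightest probe set (0.16), and that of H2-K1 turned with no signal filter (-0.02), and with the filter at the 75th percentile or the brightest probe set (-0.11 in both cases).

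B2m, which codes for the class I light chain, differed little between the pools. Its log2 ratio was -0.04, or 1.03-fold lower in the paired pool, and 76.4% of the 500 probe sets nearest in signal lay as far from 0 or farther. The sign turned under quantile scaling (0.0072) and loess scaling (0.0043).

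Among the loading genes, Tapbp had probe sets that disagreed in direction on design A. The probe set 100154_at went from 5.34 in the unpaired to 4.98 in the paired pool, which is a log2 ratio of -0.35 or 1.28-fold lower, and 8.8% of the 500 nearest in signal lay as far from 0. By contrast 102689_at went from 6.24 to 6.45, a log2 ratio of 0.21, and 162104_f_at from 5.87 to 5.92, a log2 ratio of 0.06. The range of 0.57 over the 3 probe sets above the filter was wider than that of any other member over probe sets that name it alone, and their mean was -0.03.

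Tap1 was higher in the paired pool on each of its 3 probe sets, all below the filter. The signal went from 4.19 to 4.33 on 103035_at, from 2.95 to 3.18 on 162278_r_at and from 3.64 to 3.81 on 107886_at of design B. The log2 ratios were 0.15, 0.24 and 0.18. The SD of the 500 neighbours in signal was 0.203, 0.207 and 0.249. The second difference was larger than that SD and the others were smaller. Of these neighbours 45.6%, 23.8% and 41.4% lay as far from 0 or farther. Of all probe sets below the filter 54.7% had a log2 ratio above 0, with a median of 0.022, so dim probe sets leaned upward as a whole.

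Tap2, the other subunit of the transporter, had a log2 ratio of 0.19 on 102873_at (5.26 to 5.44) and 0.0049 on 165667_r_at of design C (4.69 in the unpaired pool and 4.68 in the paired one). Psmb9, which shares its start region with Tap1, had 4.19 in the unpaired pool and 4.34 in the paired one on its design A probe set, a log2 ratio of 0.17 below the filter. Of the 4 members with several probe sets above the filter, H2-K1, H2-D1 and Tapbp had both directions. Tap2 had both in the deposited values and 1 after the shift of design C, which moved 165667_r_at from just below to just above 0.

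**Figure D2:**
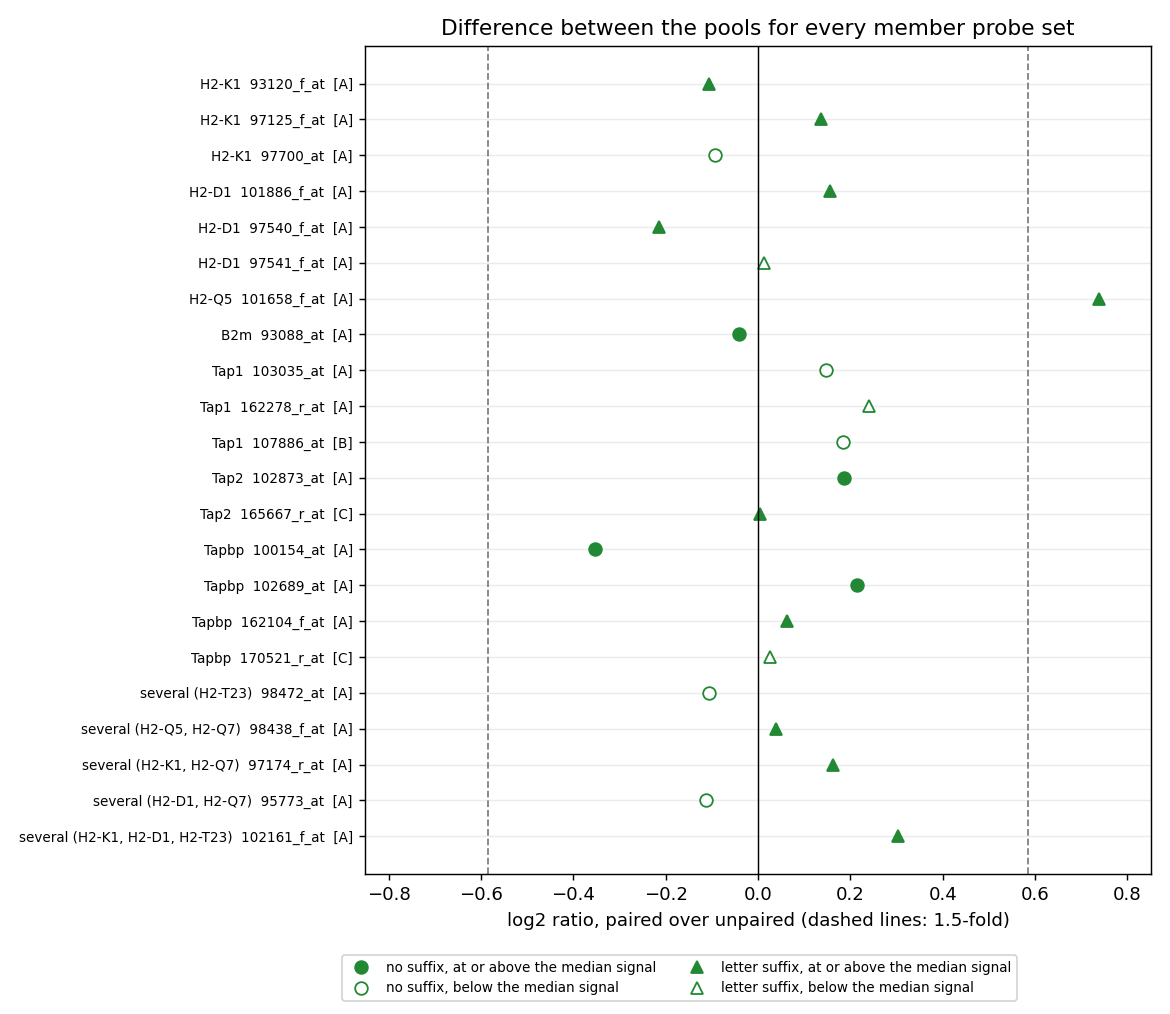
Log2 ratio, paired over unpaired, of the 22 member probe sets, with triangles for a letter suffix, filled marks for a mean signal at or above the design's median, and dashed lines at 1.5-fold. H2-Q5 at 0.74 is the only mark past a dashed line, and the marks of H2-K1, H2-D1 and Tapbp lie on both sides of 0.

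Probe sets that named several class I genes were read as family signals. The one that named 10 genes, H2-K1, H2-D1 and H2-T23 among them (102161_f_at), went from 6.38 to 6.67, a log2 ratio of 0.30 or 1.23-fold higher in the paired pool, and 13.4% of its 500 neighbours in signal lay as far from 0. The one that named H2-K1, H2-Q7, H2-Q9 and H2-Q10 (97174_r_at) went from 6.78 to 6.93, a log2 ratio of 0.16. The dim 95773_at, which named H2-D1, H2-Q7 and 3 other Q genes, went from 3.30 to 3.18, a log2 ratio of -0.11, and 98472_at, with H2-T23, had -0.11. The 3 above the filter were thus higher and both below it lower.

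**Figure D3:**
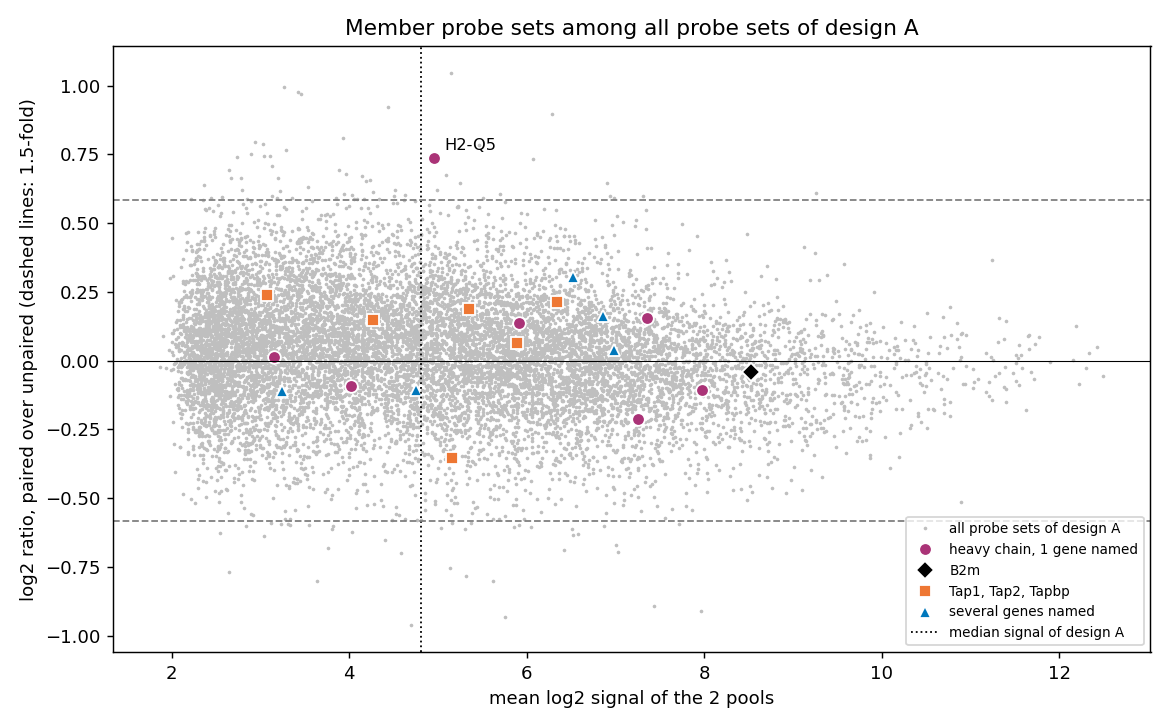
Log2 ratio, paired over unpaired, against mean log2 signal for the probe sets of design A (grey), with the 19 member probe sets marked by role, a dotted line at the median signal and dashed lines at 1.5-fold. H2-Q5 sits just right of the median signal at a log2 ratio of 0.74, and all other members lie between -0.35 and 0.30 within the grey cloud.

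Genes that act with the members were counted from lists, by the mean log2 ratio of a gene over its probe sets above the filter that name it alone. Over all 10579 such genes 5187 were higher in the paired pool and the median was -0.0039. Of the listed genes none lay past 1.5-fold. With 1 array per pool and design no list was tested, and counts and medians are given as descriptions.

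The peptide supply and folding list had 9 of 16 genes above the filter, 3 higher and 6 lower, with a median of -0.03. The sign of that median turned under quantile scaling (0.0088), loess scaling (0.0040) and with no signal filter (0.035, over 14 genes). Pdia3, the disulfide isomerase that works with tapasin in the loading complex, had a log2 ratio of -0.36 (6.06 in the unpaired pool and 5.70 in the paired one). The chaperone genes Hspa5 and Canx had -0.32 and -0.11. Another chaperone gene, Calr, was dim and below the filter, with 2.42 (rank 6.5) in the unpaired pool and 2.86 (rank 16.4) in the paired one. Its log2 ratio was 0.45. The immunoproteasome subunits Psmb8 and Psmb10 stood at 0.03 and -0.03. Pdia3 and Hspa5 were each read by 1 probe set above the filter.

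Other class I heavy chains had 4 of 18 genes above the filter, all 4 higher and between 0.02 and 0.11. They included H2-Bl at 0.11, H2-M3, which presents formylated peptides, at 0.09 over probe sets at -0.03 and 0.21, and the neonatal Fc receptor gene Fcgrt at 0.04. The list leaves out H2-K2 and H2-T18, whose own probe sets above the filter were lower, at -0.03 and -0.07. Over the 10 other class I probe sets above the filter, those that name several genes included, 6 were higher and 4 lower. The receptor list had 3 of 12, with Pirb, a class I receptor known from studies of visual cortex plasticity, at 0.06, the adaptor gene Tyrobp at -0.05 and the insulin receptor gene Insr at 0.02. Cd247, the T cell receptor zeta chain gene that neurons also express, was below the filter on both probe sets, with log2 signals in the unpaired pool of 3.61 and 3.48. These lists were too short for a median.

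The class II list, which serves the other arm of antigen display, had 7 of 13 genes above the filter, 6 of them higher, with a median of 0.05. H2-Ab1 had a log2 ratio of 0.36 (5.26 and 5.61), the peptide exchange genes H2-DMb1 and H2-DMa had 0.21 and 0.10, and H2-Aa and H2-Eb1 had 0.03 and 0.02. The 2 H2-DMa probe sets above the filter gave -0.07 and 0.26.

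Interferon signalling and response genes had 19 of 45 above the filter, 11 higher and 8 lower, with a median of 0.05 that turned to -0.01 on design B alone. Ifit3, an interferon-induced gene, had the largest log2 ratio at 0.51 (5.16 and 5.66), followed by the signal transducer gene Stat2 at 0.37 over probe sets at 0.15 and 0.58. Samhd1 had -0.22. Irf7, Isg15, Gbp2 and Bst2 lay between 0.05 and 0.15. The 8 lower genes also included Lgals3bp at -0.13, over probe sets at -0.18 and -0.08. Jak1, another of them, had -0.08 over probe sets at -0.22 and 0.07. Nlrc5, Irf1 and Ifit1 were below the filter, with log2 ratios of 0.16, -0.03 and 0.15.

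**Figure D4:**
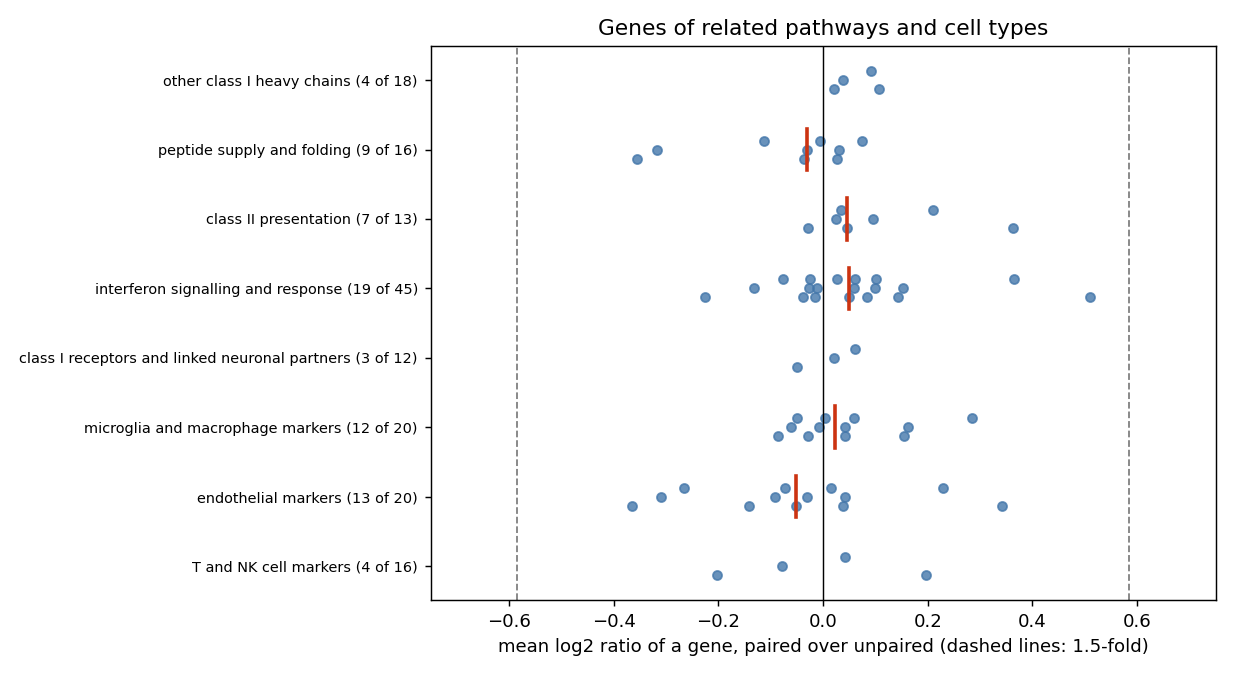
Mean log2 ratio of each gene above the filter, paired over unpaired, by list, with the median as a red bar where at least 5 genes were measured and dashed lines at 1.5-fold. The labels give the genes above the filter of those listed, and every gene lies within the dashed lines, with Ifit3 at 0.51 and Cldn5 at -0.37 at the ends.

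Markers of cells that carry class I were read beside the members. Microglia and macrophage markers had 12 of 20 genes above the filter, 7 higher, with a median of 0.02 (-0.0018 on design A alone) and a mean log2 level of 6.66 in the unpaired pool and 6.69 in the paired one. Cx3cr1 had 0.29, C1qc 0.16 and Tmem119 0.16, while C1qa and C1qb had 0.04 and -0.0071. The lowest were Laptm5 at -0.09, over probe sets from -0.22 to 0.07, and Cd68 at -0.06. Endothelial markers had 13 of 20, 5 higher, with a median of -0.05 and mean levels of 6.12 and 6.06, and with Cldn5 at -0.37, Ctla2a at 0.34 and Emcn at -0.31. T and NK cell markers had 4 of 16 above the filter, 2 higher, with mean levels of 6.42 and 6.41, Thy1, which neurons also express, at -0.20, Gzma at 0.20 and Nkg7 at -0.08. The fourth gene above the filter was Cd4, which microglia and macrophages can also express, at 0.04 (6.15 in the unpaired pool and 6.18 in the paired one). The other defining genes Cd3d, Cd3e, Cd3g and Cd8a were below the filter on every probe set. Whether these cells contribute to the difference of H2-Q5 was not tested.

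The tissue held transcripts of the deep nuclei and of the cerebellar cortex. Nefh and Syt2, which mark large nuclear neurons, had ranks up to 97.8 and 97.6 on design A of the unpaired pool, and Pcp2, which marks Purkinje cells of the cortex, up to 97.5. These markers also differed between the pools. Nefh had a log2 ratio of -0.24, and Syt2 had -0.22 on its bright probe set and 0.20 on one below the filter. Slc17a6, the glutamate transporter gene of excitatory nuclear neurons, had 0.85 on design B and -0.08 and -0.0025 on design C. Gabra6, a granule cell gene of the cortex, had 0.73 and 1.04, and Pcp2 had 0.09 and -0.08. The part of the dissected tissue's makeup in the H2-Q5 difference was not tested either. Median log2 signals of the paired arrays differed from those of the unpaired ones by at most 0.04, and design A had 4.79 (unpaired) and 4.83 (paired).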

How the data were processed

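Total RNA of each pool was labelled with biotin as cRNA and read on arrays of 1 colour, per the labels' protocols. The deposited values are log2 signals, with the base inferred from the range of values. How the authors summarized and normalized them is not given in the sources used here. In all, 198 control probe sets were left out. Genes came from the platform annotation, brought up to date by gene ID with the RefSeq table of GRCm38.p6 (29044 of 29131 probe sets with 1 symbol). 724 probe sets had several symbols and 6846 none. No coordinates are tied to the signals.

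For each design, paired signals were shifted to give a median log2 ratio of 0 among probe sets whose mean signal reached the design's median. Designs were never normalized together. Counts used 1.5-fold. All members were named, and of each list up to 3 genes with the largest absolute log2 ratio. Canx, Psmb8, Psmb9, Psmb10, H2-Aa, H2-Eb1, Irf7, Isg15, Gbp2, Bst2, Nlrc5, Irf1, Ifit1, Cd247, the Cd3 genes, Cd4, Cd8a, H2-K2, H2-T18 and the tissue markers were named after their values were seen. The same holds for Calr, Lgals3bp, Jak1, Laptm5, Cd68, C1qa and C1qb. The members and lists were chosen with earlier results of these data known. Alternatives covered scaling, the signal filter, suffixed and multi-gene probe sets, the brightest probe set and each design alone. The scaling and the 1.5-fold count were tested on simulated signals with known differences. The signal filter, the gene annotation and the lists were not tested in this way. Python 3.11.15, pandas 2.3.3, statsmodels 0.14.6 (loess, span 0.3) and Biopython 1.88 were used. The number of arrays limits the precision.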

Additional observations from a re-analysis of the deposited data

How the results depend on the processing

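The median log2 ratio of the members above the filter (0.10) stayed above 0 under each of the 11 alternatives run, between 0.0049 and 0.14. It was lowest with the filter at the 75th percentile (0.021 over 8 probe sets) and on design C alone (0.0049 over 1 probe set), where fewer probe sets were left. The count of higher probe sets, 10 of 14, became 5 of 8 at that percentile, 2 of 4 without suffixed probe sets, 4 of 6 with the brightest probe set per gene and 1 of 1 on design C. The count past 1.5-fold, 1 in the main analysis, was 0 under the first, the second and the last of these settings, which leave out the H2-Q5 probe set, and 0 when it alone was left out, an alternative chosen after seeing the data. H2-Q5 kept a log2 ratio between 0.69 and 0.74 in the 6 alternatives that hold it. The means of H2-K1, H2-D1, B2m and Tapbp turned sign in 8 of 44 comparisons over the member genes, and the Tapbp mean was 0.21 with its brightest probe set. List medians turned sign in 5 of 41, 3 of them for peptide supply and folding and 1 each for the interferon and the microglia lists. Design B alone gave no value, since its 1 member probe set is below the filter. No paired analysis was possible because no group had a replicate.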

Other observations

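Class I probe sets that name none of the 9 genes were read as values only. Of 17 such probe sets 10 were above the filter, 6 higher and 4 lower in the paired pool, with a median log2 ratio of 0.05 and a range of -0.25 to 0.21. The bright H2-K2 probe set 93714_f_at had 7.63 in the unpaired pool and 7.59 in the paired one, a log2 ratio of -0.03. The 2 probe sets that name H2-T9, H2-T22 and H2-T10 went opposite ways, at -0.25 and 0.10. The H2-D4 probe set 101653_f_at, below the filter, went from 4.46 to 4.79, a log2 ratio of 0.33, while the other H2-D4 probe set, 101652_i_at, had 0.09. The H2-T18 probe set 98284_f_at had -0.07. None of the 17 lay past 1.5-fold.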
